A study of Mus musculus with 12 samples.

Results

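Atf4, Atf5, Ddit3, Ppp1r15a, Ppp1r15b, Ifrd1, Trib3 and Asns are 8 genes of the mammalian stress response, taken by name from the 20504 genes with counts on coding sequences (CDS). All 8 were found there and among the 23352 genes counted on exons. The libraries were made from brain tissue of 6 mice, all adult and of the Camk2a-RiboTag line. These mice carry Cre recombinase under the Camk2a promoter, which is active in principal excitatory neurons of the forebrain. They also carry a conditional Rpl22 allele whose protein bears a hemagglutinin (HA) tag after recombination, so tagged ribosomes can be pulled down from those neurons. Every group, controls included, shared this genotype. Mice A and B were controls, labelled untreated and given vehicle (Captisol) by oral gavage according to the methods. Mice C and D were gavaged once with 100 mg/kg of AZD-8055, which blocks the ATP site of the mTOR kinase, and were killed after 1 h. Each of these 4 mice gave a ligation-free ribosome profiling library and a poly(A) RNA-Seq library from 1 brain lysate. Mice E and F were labelled untreated, and each gave an RNA-Seq library of the homogenate (input) and of the HA immunoprecipitate (IP). With 2 mice in each group, the p-values rest on the spread between 2 libraries of a group, estimated with help from all other genes. In the main fits, libraries of the same mouse were not paired.

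Most of these mRNAs carry short upstream open reading frames (uORFs) in front of the main coding sequence. Ribosomes that translate an inhibitory uORF rarely go on to the main frame. When a stress-activated kinase phosphorylates the alpha subunit of initiation factor eIF2, general initiation falls, and more scanning ribosomes bypass the inhibitory uORFs and reach the main frame. Atf4 is the best known example. Its protein activates genes of amino acid supply and of the stress response, among them Asns and Trib3, which complete the group as ATF4 targets. mTORC1 is also known to promote synthesis of ATF4.

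The counts on CDS totalled 3503873 to 9259938 in the ribosome profiling libraries, 9395385 to 10649939 in the matched RNA-Seq libraries, and 9309496 to 15585831 in the input and IP libraries. Treatment had the known mark of mTOR inhibition. Footprints of all 12 of 12 mRNAs with a terminal oligopyrimidine (TOP) start that were checked fell, with a median log2 change of -1.14. The tables give 1 count per gene, so they say how many footprints lay on the CDS of a gene and not how many lay on its uORFs.

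The 8 loci are given on GRCm38 (mm10) from the RefSeq gene table, which holds whole gene spans. They are Atf4 at chr15:80255184-80257545, Atf5 at chr7:44812256-44816658, Ddit3 at chr10:127290793-127296291, Ppp1r15a at chr7:45522917-45526268, Ppp1r15b at chr1:133131166-133139800, Ifrd1 at chr12:40203129-40223189, Trib3 at chr2:152337425-152344060 and Asns at chr6:7675165-7693209. The spans of Atf5 (with Nup62 and Il4i1b), Ddit3 (with Mbd6 and Mars1), Ppp1r15a (with Tulp2) and Ifrd1 (with Mir1938) overlap those of other annotated genes. The authors' counting left out reads shared between genes.

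RefSeq start-site windows, each with the 250 bases before and the first 50 bases of a transcript, were matched by symbol for 7 of the 8 genes, all but Ppp1r15b. Within those first 50 bases, an ATG triplet was found for 4 of the 7 matched genes. Among single windows of all genes, 44.3% of 32851 had one, so this count does not set the members apart. The 4 stretches are shown because an upstream start codon is the feature that these mRNAs are known for. Each is 30 bases long, runs from base 21 to base 50 of the transcript, and has ATG in capitals.
Ddit3 (chr10:127290813-127290842, plus strand): acacgtcgattatatcATGttgaagATGag
Ppp1r15a (chr7:45526219-45526248, minus strand): aagccgcgtggacgATGttggcgcagattg
Ifrd1 (chr12:40223140-40223169, minus strand): tagagagaaacATGtatcgtttccgctcgc
Atf5, second listed start (chr7:44815609-44815638, minus strand): gatctgtgtgtgtgacactgATGaagggcc
In Ddit3 the triplets start at bases 37 and 46, which places them in 1 reading frame. The ATG starts at base 35 in Ppp1r15a, at base 32 in Ifrd1 and at base 41 from the second listed start of Atf5. No ATG lies in the first 50 bases of Atf4, Trib3, Asns or the other listed start of Atf5. The windows end there, so neither the length of a frame nor any later uORF can be read from them. They also do not mark where the main coding sequence starts.

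The windows were also searched on both strands for TGATGNAA, the core of the amino acid response element to which ATF4 dimers bind. It occurred in 3.97% of all windows and in those of Asns and Trib3. It was not found in the windows of Atf4, Atf5, Ddit3, Ppp1r15a or Ifrd1. An element farther than 250 bases before the start, or later in the gene, would be missed, so a window without it does not show that a gene is no ATF4 target. The matched bases are in capitals.
Asns, starting 23 bases before the transcript (chr6:7693214-7693243, minus strand): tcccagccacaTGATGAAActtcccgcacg
Trib3, within the transcript and reversed on its strand (chr2:152344028-152344057, minus strand): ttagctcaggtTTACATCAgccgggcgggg

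**Figure D1:**
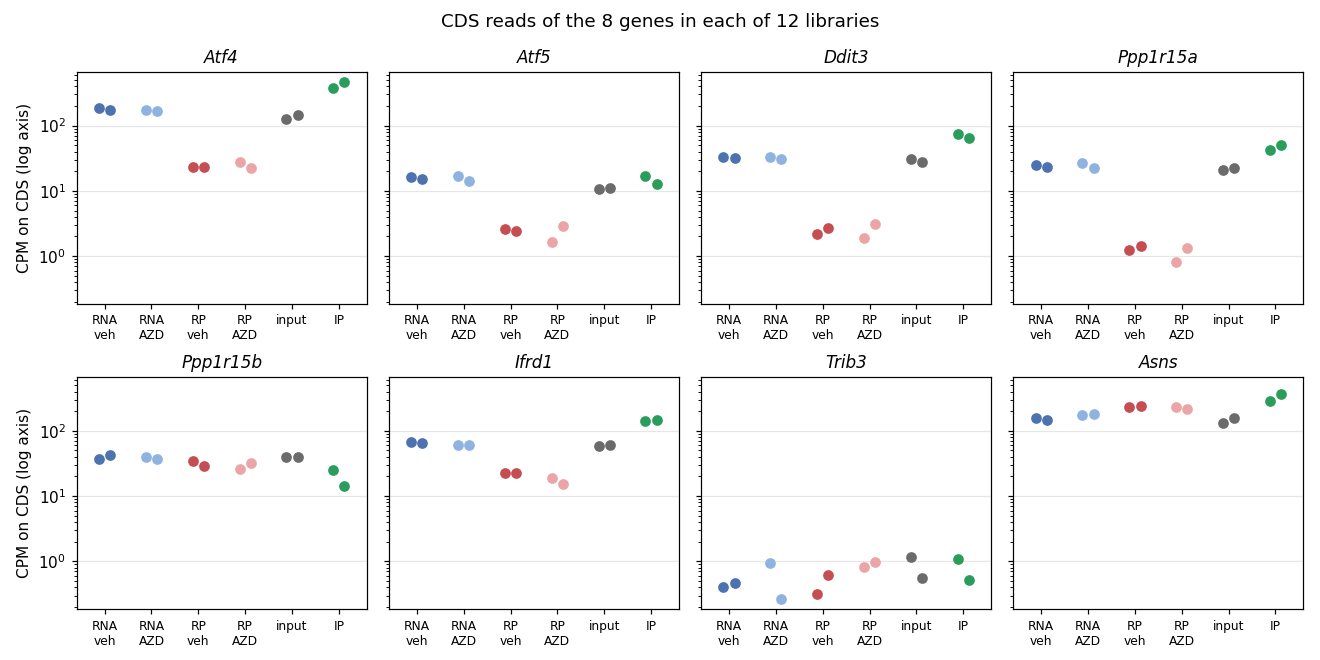
Normalized counts on CDS (CPM, log axis) of the 8 genes in each of the 12 libraries. Each point is 1 library, with RNA-Seq (RNA) and ribosome profiling (RP) of vehicle (veh, mice A and B) and AZD-8055 mice (AZD, mice C and D), and input and IP of mice E and F, the earlier letter on the left. Footprints lie far below RNA for Atf4, Atf5, Ddit3 and Ppp1r15a, and above RNA for Asns, while Trib3 stays near 1 or below in every library.

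The first question was how densely ribosomes occupied the coding sequences in control brain. Translation efficiency (TE) is the ratio of footprints to RNA on the CDS, and gene length cancels in it. Footprints were tested against RNA of the control mice with edgeR (quasi-likelihood test, Benjamini-Hochberg adjustment) on genes whose counts averaged 37 or more over the 4 libraries. Atf4, Ifrd1, Ppp1r15b and Asns reached 37 in their footprints as well. Of these 4, Atf4 and Ifrd1 were lower than the typical gene, Asns was higher and Ppp1r15b did not pass. Over all 11891 genes tested, 36.9% were called lower and 36.6% higher. These shares also cover genes with fewer than 37 footprints on average, so they are not matched to the 4 members. Atf5, Ddit3 and Ppp1r15a entered only through their RNA counts, with fewer than 37 footprints on average. A gene kept in that way must have fewer footprints than RNA reads, so the TEs of these 3 are given as a description with no test, and they are not counted with the others. Trib3 did not reach the filter. The median log2 TE (mean of mice A and B) of the 4 genes with enough footprints was -0.87. With a fold change over 2 also required, Atf4 and Ifrd1 were still called and Asns was not.

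Atf4, the transcription factor at the centre of the response, had 1882 and 1823 CDS reads in the control RNA-Seq libraries and only 217 and 115 footprints. In normalized counts (CPM, scaled to the library size after TMM normalization), RNA stood at 189 and 171 and footprints at 22.8 and 23.5. The log2 TE of mice A and B was -2.97 and -2.80, so the values of both were similarly low. In the test it was -2.85 (SE 0.096, 95% confidence interval -3.06 to -2.64, adjusted p = 2.1e-11 by edgeR's quasi-likelihood test), or 7.20-fold below the typical gene. Only 1.52% of the genes tested had a lower TE.

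Atf5, a related transcription factor whose mRNA has a similar uORF layout, gave 25 and 12 footprints against 160 and 159 RNA reads. Its log2 TE was -2.53 and -2.54, and the fitted value was -2.48, given as a description. The count of 37 footprints in both mice together lies under the limit of 75 that the study set for TE, as do the counts of Ddit3, Ppp1r15a and Trib3.

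Ddit3 encodes CHOP, a transcription factor that promotes cell death under lasting stress. Its 326 and 338 RNA reads stood beside 21 and 13 footprints, and the log2 TE was -3.81 and -3.51. The fitted value was -3.65, a description that rests on those 34 footprints.

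Ppp1r15a encodes GADD34, the inducible subunit that directs protein phosphatase 1 to eIF2alpha and so ends the response. Its TE was the lowest value in the group, with 252 and 249 RNA reads and 12 and 7 footprints. The log2 TE was -4.24 and -3.96 and the fitted value -4.08, a description that rests on 19 footprints in both mice.

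Ppp1r15b, the constitutive counterpart of Ppp1r15a known as CReP, stood apart from it. It had 374 and 451 RNA reads and 327 and 141 footprints. The log2 TE was -0.05 and -0.49, and the fitted -0.20 did not pass the test (95% confidence interval -0.46 to 0.05, adjusted p = 0.135 by edgeR's quasi-likelihood test). It did pass as lower when libraries were scaled by total counts (-0.35, adjusted p = 0.017) and without the filter on low counts (-0.32, adjusted p = 0.032), both by edgeR. In both mice the log2 TE of Ppp1r15b lay above that of Ppp1r15a, which is a description with no test.

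Ifrd1, a transcriptional coregulator whose mRNA is stabilised when its uORF is bypassed, held an intermediate place. Its 666 and 698 RNA reads came with 213 and 112 footprints, and the log2 TE was -1.50 and -1.45. The fitted value was -1.44 (SE 0.10, adjusted p = 2.4e-08 by edgeR's quasi-likelihood test), or 2.71-fold below the typical gene.

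Asns and Trib3 are in the group as targets of ATF4. Asns, the enzyme that makes asparagine, had 1566 and 1560 RNA reads and 2240 and 1165 footprints, and its log2 TE of 0.66 and 0.77 was above that of the typical gene in both mice. The fitted value was 0.76 (SE 0.074, adjusted p = 5.3e-07 by edgeR's quasi-likelihood test), or 1.69-fold higher. Trib3, a pseudokinase that restrains ATF4 and CHOP, had 4 and 5 RNA reads and 3 and 3 footprints. It was not tested in any comparison, and its level in all 12 libraries was between 3 and 15 CDS reads.

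Ordered by fitted TE, the genes ran Ppp1r15a, Ddit3, Atf4, Atf5, Ifrd1, Ppp1r15b and Asns. The places of Ppp1r15a, Ddit3 and Atf5 are a description with no test, since these genes were kept by their RNA counts only. Among Atf4, Ifrd1, Ppp1r15b and Asns, which had enough footprints, no 95% confidence intervals overlapped. The plot of TE by mouse shows the low position of Atf4 and Ifrd1 in both treatments. Ppp1r15a, Ddit3 and Atf5 also lie low there, as a description from few footprints.

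**Figure D2:**
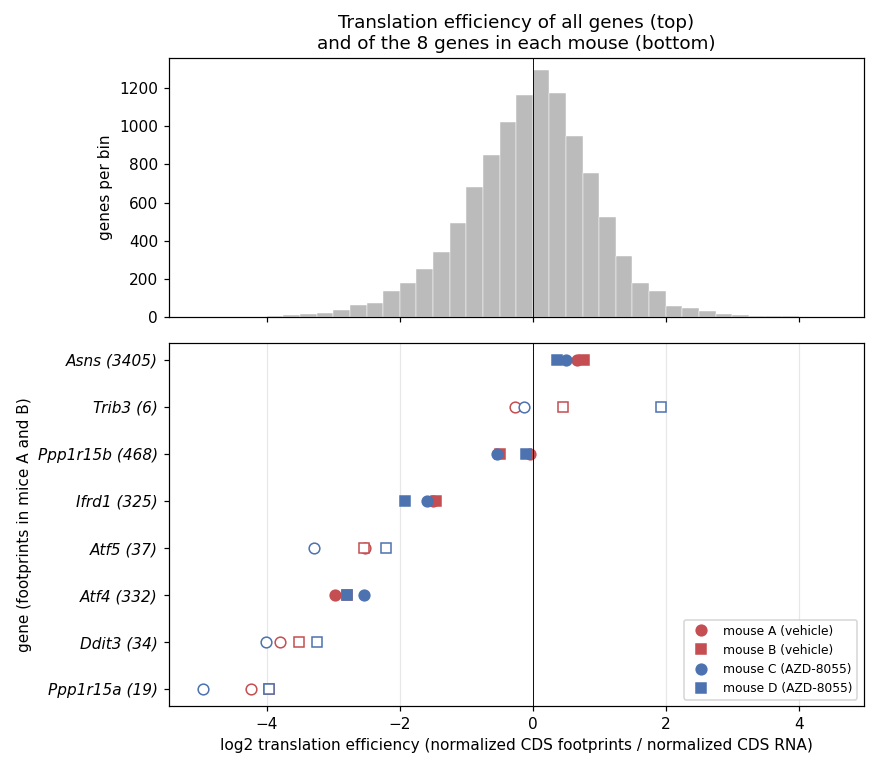
Top, distribution of log2 TE (mean of mice A and B) over 10882 genes with at least 75 counts. Bottom, log2 TE of the 8 genes in each of 4 mice, with the footprints of mice A and B together in brackets and open symbols for genes under 75 footprints. All points of Ppp1r15a, Ddit3, Atf4, Atf5 and Ifrd1 lie to the left of 0 and all points of Asns to the right.

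Other mRNAs known for an inhibitory uORF lay on both sides of the typical gene. Of 13 on the list, 12 were tested, and 6 were lower and 3 higher than the typical gene, with a median log2 TE of -0.57. Over all genes tested, 36.9% were called lower and 36.6% higher. Ucp2, a mitochondrial carrier, and Slc35a4, a transporter whose mRNA resists the general fall in initiation, were at -2.84 and -2.80. Hr, a nuclear receptor corepressor, was at -1.95, while Slc7a1, the cationic amino acid transporter, was at 1.85. Hr and Slc7a1 passed edgeR's test, with adjusted p-values up to 3.8e-08. Ucp2 and Slc35a4 had enough RNA reads for the RNA comparison after treatment, but too few footprints for the footprint comparison. The low TEs of Ucp2 and Slc35a4 are therefore given as a description with no test. Here too a gene could enter through its RNA counts alone, so the number of lower genes in these lists is a description. Among other ATF4 targets, 32 of 40 were tested, of which 10 were higher and 7 lower (median 0.16). The cystine transporter Slc7a11 had a log2 TE of 2.86 and the transcription factor Jdp2 one of -1.41. Of 20 genes of the eIF2 machinery, among them eIF2 kinases, subunits of eIF2 and eIF2B, and phosphatase parts, 10 were higher and 8 lower (median 0.17). Impact, an inhibitor of the kinase GCN2, led with 2.38, and Eif2s1, which encodes eIF2alpha itself, was at 1.09.

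The second comparison asked whether acute mTOR inhibition moved these genes. No member was called in RNA, in footprints or in TE. In RNA, 0 of 7 passed edgeR's quasi-likelihood test after adjustment, and 1 had an unadjusted p below 0.05. The share called over all 12182 genes was 0.148%. In footprints, 4 members had enough counts, 0 were called and 1 had an unadjusted p below 0.05, against 1.03% called of 10695 genes. In TE, tested as the interaction of assay and treatment, 0 of 7 were called and 1 had an unadjusted p below 0.05, against 0.865% called of 11797 genes. DESeq2 and limma-voom also called none of the members in any of these comparisons. With such low shares over all genes, a count of 0 among 4 to 7 genes says little by itself, and the intervals carry the information. These are bulk samples, so fewer cells of a type and less RNA per cell cannot be told apart.

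The RNA of Atf4 was 189 and 171 CPM in vehicle mice and 171 and 166 in AZD-8055 mice, and the groups met at their edge. Its footprints were 22.8 and 23.5 against 27.5 and 22.5, and overlapped. The log2 TE of -2.97 and -2.80 stood against -2.54 and -2.79, so the treated mice were not below the vehicle mice. The fitted TE change was 0.22 (SE 0.15, adjusted p = 0.839 by edgeR's quasi-likelihood test), with a 95% confidence interval from 0.933-fold to 1.45-fold. A fall of the size seen in the TOP mRNAs, whose median TE change was -1.24 on the log2 scale, lies outside that interval.

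Asns showed the smallest unadjusted p of the group in RNA and in TE. Its RNA was 157 and 147 CPM in vehicle mice and 173 and 179 in AZD-8055 mice, higher in both treated mice and without overlap. Its footprints were 236 and 238 against 229.8 and 217, lower in both treated mice. The log2 TE of 0.66 and 0.77 thus stood against 0.51 and 0.37. The RNA change was 0.18 (SE 0.072, adjusted p = 0.518) and the TE change -0.28 (SE 0.10, adjusted p = 0.539), and neither passed edgeR's quasi-likelihood test after adjustment.

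Ifrd1 had the lowest footprint change. Footprints were 22.4 and 22.9 CPM in vehicle mice and 18.8 and 15.3 in AZD-8055 mice, and the groups did not overlap. The change of -0.40 had a 95% confidence interval of -0.77 to -0.04 and did not pass the adjustment (adjusted p = 0.341 by edgeR's quasi-likelihood test). Its RNA change was -0.15 and its TE change -0.28 (95% confidence interval -0.63 to 0.07).

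Atf5, Ddit3 and Ppp1r15a yielded too few footprints for a footprint test. In mice C and D, Atf5 gave 6 and 15 footprints, Ddit3 7 and 16, and Ppp1r15a 3 and 7. Their RNA changes were -0.017, -0.037 and -0.0037 on the log2 scale, with 95% confidence intervals that reached no further than -0.34 and 0.30. The TE changes were far less certain. That of Ppp1r15a ran from 0.396-fold to 1.86-fold, that of Ddit3 from 0.651-fold to 1.94-fold and that of Atf5 from 0.503-fold to 1.73-fold, so changes of TE within these ranges were not detectable at this depth. Ppp1r15b was narrower, with a TE change of -0.04 and an interval from 0.740-fold to 1.28-fold.

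**Figure D3:**
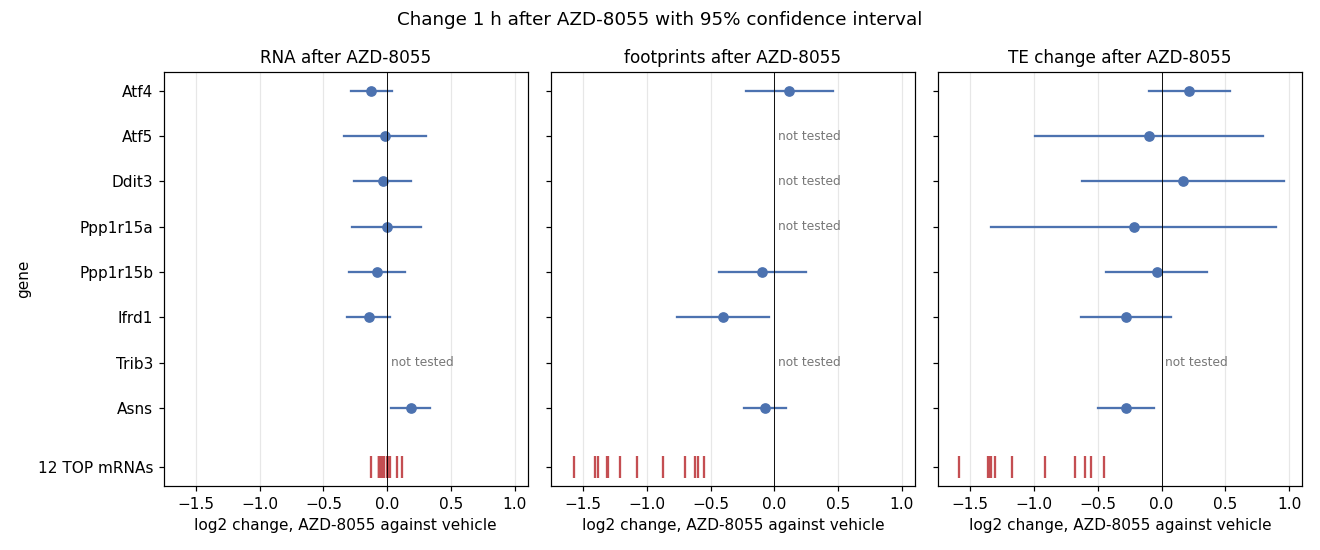
Log2 change of the 8 genes 1 h after AZD-8055 against vehicle in RNA, footprints and TE. Points are fitted changes with 95% confidence intervals from 2 mice a group, and red ticks are the 12 TOP mRNAs. Most intervals of the members cross 0, those of Asns in RNA and TE and of Ifrd1 in footprints do not (no call after adjustment), and all 12 TOP mRNAs lie below -0.45 in footprints and TE.

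The gene lists around the members differed in how they moved. Of 32 tested ATF4 targets, 0 passed edgeR's test in RNA (median -0.06, 3 with an unadjusted p below 0.05) and 0 in TE (median 0.04, 0 with an unadjusted p below 0.05), and DESeq2 and limma-voom called none either. Of 20 eIF2 genes, 1 passed in footprints (median -0.19, 9 with an unadjusted p below 0.05) and 1 in TE (median -0.13, 8 with an unadjusted p below 0.05). Over all genes tested, an unadjusted p below 0.05 was found for 1004 of 12182 in RNA, 1369 of 10695 in footprints and 796 of 11797 in TE. Eif2s2, the beta subunit of eIF2, fell in footprints by 0.41 on the log2 scale (adjusted p = 0.0496 by edgeR, not called by DESeq2). Eif2a, an initiation factor distinct from the eIF2 alpha subunit, fell in TE by 0.69 (adjusted p = 0.016 by edgeR). Of 27 genes of the IRE1 and ATF6 arms of the unfolded protein response, 2 fell in RNA (median of the list -0.15, 13 with an unadjusted p below 0.05) and 3 in footprints (median -0.14, 12 with an unadjusted p below 0.05). They include the chaperone Hspa5, with a change of -0.50 in RNA (adjusted p = 0.0022) and -0.42 in footprints (adjusted p = 0.025 by edgeR's quasi-likelihood test), and the secreted factor Manf at -0.51 in RNA. The summed level of 7 excitatory neuron markers was 3990.3 and 3903 CPM in RNA of vehicle mice and 4437 and 4070 in AZD-8055 mice, and its part in these values was not tested.

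The third comparison asked which of these mRNAs were enriched on the tagged ribosomes of Camk2a-expressing neurons. The pull-down separated cell types. The summed CDS level of 7 excitatory neuron markers rose from 5030.1 and 4681 CPM in input to 9362 and 8862 in IP. That of 7 astrocyte markers went from 1469 and 1353 to 122 and 137, and that of 7 microglial markers from 425 and 409 to 44.7 and 44.9. No marker was at 0 in any library.

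Of the 7 members tested on exon counts, 5 were higher in IP than in input and none lower by edgeR's quasi-likelihood test after adjustment. Over 13254 genes, 33.7% were called higher and 35.7% lower. The median log2 enrichment of the members was 0.76, against -0.03 over all genes. The 5 were Atf4, Ifrd1, Ddit3, Asns and Ppp1r15a. Scaling by total counts in place of TMM moved the median of all genes to -0.31 and the calls over all genes from 4463 higher and 4731 lower to 3097 higher and 6118 lower. Under that scaling 4 members were called higher, and Ppp1r15a was not (0.33, adjusted p = 0.060). With a fold change over 2 also required, Atf4 alone was called.

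Atf4 was the most enriched member. Its exon counts were 81.2 and 87.3 CPM in the inputs of mice E and F and 185 and 207 in the IPs, well above input in both mice. The log2 ratios of these mice were 1.22 and 1.27, and the fitted enrichment was 1.13 (SE 0.097, adjusted p = 0.00017 by edgeR's quasi-likelihood test), or 2.19-fold. It stood at the 91.3 percentile of all genes tested.

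Ifrd1 rose from 36.6 and 36.0 to 71.1 and 67.1 CPM, 1.79-fold in the fit. Ddit3 rose from 21.4 and 18.2 to 40.2 and 31.8, 1.71-fold. Asns rose from 76.9 and 87.1 to 136 and 159, 1.69-fold. In all of these genes both IP libraries lay above both inputs.

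Ppp1r15a, with 12.6 and 12.8 CPM in input and 19.9 and 21.2 in IP, was 1.52-fold higher (log2 0.60, SE 0.12, adjusted p = 0.0053 by edgeR's quasi-likelihood test). Atf5 was at 12.5 and 11.6 in input and 14.2 and 13.7 in IP. Its fitted enrichment of 0.12 did not pass the test (95% confidence interval -0.23 to 0.47, adjusted p = 0.490), although both IPs lay above both inputs.

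For Ppp1r15b the result depended on the counting region. On exons it was at 67.9 and 64.3 CPM in input and 80.6 and 62.2 in IP, the groups overlapped, and the fitted enrichment was 0.02 (SE 0.15, adjusted p = 0.905 by edgeR's quasi-likelihood test). On the CDS it was at 39.2 and 39.2 in input and 25.5 and 14.5 in IP, and the fitted value was -0.94 (SE 0.24, adjusted p = 0.0065). Reads on the CDS made up 32.1% and 33.1% of its exon reads in input and 14.3% and 9.72% in IP. The median gene also had a lower CDS share in IP, 52.5% and 48.8% against 66.4% and 65.1% in input. The 5 enriched members had a CDS share of 80.7% or more in all 4 of these libraries and were called higher under both counting regions. In Atf4 the share was 87.4% and 89.2% in input and 91.6% and 92.5% in IP, and its log2 enrichment was 1.65 on CDS counts.

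**Figure D4:**
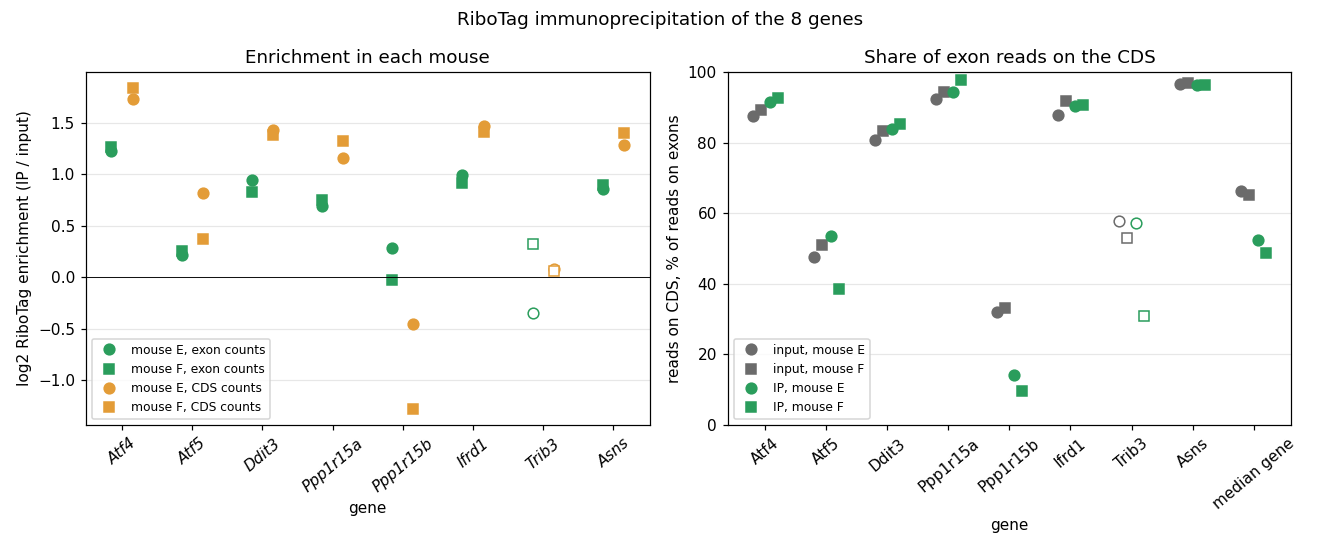
Left, log2 RiboTag enrichment (IP divided by input) in mice E and F on exon and CDS counts, with open symbols for Trib3, which was too low to test. Right, reads on the CDS as a percentage of reads on exons in input and IP, with the median gene on the right. Atf4, Ddit3, Ppp1r15a, Ifrd1 and Asns lie above 0 on both counts, and Ppp1r15b falls from 32.1% and 33.1% to 14.3% and 9.72% on the right.

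Genes around the members differed in the pull-down. Of 20 genes of the eIF2 machinery, 12 were higher in IP and 4 lower (median 0.53), the lower ones led by the kinase PKR (Eif2ak2, -2.12), the kinase GCN2 (Eif2ak4, -1.55) and its activator Gcn1l1 (-1.21). The adaptor Nck2 was at 1.32. Over all genes tested, 33.7% were called higher in IP and 35.7% lower. Of 35 tested ATF4 targets, 11 were higher and 12 lower (median -0.07). The serine synthesis enzymes Phgdh and Psat1 were at -3.36 and -1.67, the cystine transporter Slc7a11 at -2.78 and Vegfa at -1.71. Asns thus stood among the targets higher in IP. The other genes named with a value here passed edgeR's test, with adjusted p-values up to 0.00032.

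Atf4 and Ifrd1 were lower in TE in mice A and B and higher in IP in mice E and F. Over the 11748 genes tested in both comparisons, 12.8% had these calls together. Ddit3 and Ppp1r15a, higher in IP, had low TEs that were not tested. Asns was higher in both measures, and Atf5 was not called in IP. TE was measured in other mice than the pull-down, and the IP counts whole mRNAs, whichever part of them the ribosomes occupy.

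Over the 12 CDS libraries, the log2 levels of Atf4, Atf5, Ddit3, Ppp1r15a and Ifrd1 followed each other, with Pearson's r from 0.889 (Atf5 with Ifrd1) to 0.996 (Ddit3 with Ppp1r15a). The points share mice and fall by library type, with footprints far below RNA, so r describes those steps. Asns had an r of -0.0044 with Atf4 and -0.91 with Ppp1r15b. Among the genes most like Atf4 by this measure, out of 12013, were Ctdnep1 (0.998) and 2210013O21Rik (0.997). For Ddit3 they were Mkks, Coq2 and Begain, for Ppp1r15a Rabl6, Mettl9 and Pomgnt1, for Ifrd1 Tuba1b, Brd7 and Ogfr, and for Atf5 Tnk2, Hdac5 and Pitpnm1, each with an r of at least 0.986. For Asns they were Dynlrb1, Rsl1d1 and Vps45 (0.988 to 0.991), and for Ppp1r15b Zbtb39, Patl1 and Arhgap18 (0.941 to 0.949).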

How the data were processed

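Ligation-free ribosome profiling and poly(A) RNA-Seq were analysed in 12 libraries of 6 mice. The authors deposited raw gene counts, on CDS in every library and on exons in the RNA-Seq libraries only. They trimmed footprint reads, removed poly(A) and rRNA (Bowtie2), aligned the rest by TopHat2, and used HTSeq for counting (strict intersection, which leaves out reads shared by 2 genes). The submitters' processing notes name mm10, and tool versions are not given in the sources used here.

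Genes whose counts averaged 37 or more were tested by the quasi-likelihood method of edgeR 4.0.16 (R 4.3.3) after TMM normalization, and p-values were adjusted over all genes (Benjamini-Hochberg, threshold 0.05). Baseline TE compared footprints with RNA in mice A and B, the TE change was the interaction of assay and treatment over 8 libraries in place of the RiboDiff of the study, and IP was compared with input on exon counts. TE and enrichment per mouse are log2 ratios of counts divided by DESeq2 1.42.0 size factors. CPM used TMM over all libraries of a table, with factors from 0.768 (IP of mouse F) to 1.08 on CDS. The code was tested on simulated data with 200 changed genes.

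Alternatives were DESeq2, limma-voom (limma 3.58.1), other scalings, no filter, the other counting region, a fold change over 2, the mouse as a block, another pseudocount and leaving out each mouse. Libraries with the same mouse letter come from 1 animal. Over genes, A minus B correlated at 0.257 between footprints and RNA, C minus D at 0.241, and E minus F at 0.563 between IP and input. Libraries of 1 group differed by more than sampling noise (chi-square per degree of freedom of 2.61 or more).

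The members and the gene lists were chosen with earlier results of these data known. Named are all members, up to 4 called genes per other list and comparison with the largest change in the same direction in both mice, Eif2s1 in addition as the gene of eIF2alpha, and the 3 genes most correlated with each member. A gene that this rule covers is not reported here. Sequences and positions come from RefSeq tables of GRCm38.p6, read with Python 3.11.15. Figures used matplotlib 3.10.9. Coding lengths were not used here, so levels are not compared between genes.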

Additional observations from a re-analysis of the deposited data

How the results depend on the processing

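Atf4 and Ifrd1 were called lower in TE under each of the alternatives run, and no member was called after AZD-8055 under any of them. In IP the number of members called ran from 1 to 6 (4 with total counts, 6 on CDS counts, where Ppp1r15b was lower). With a fold change over 2 also required, 1 member (Atf4) was called in IP, and the counts over all genes were 3665 in baseline TE, 4 in RNA, 36 in footprints, 36 in TE change and 4433 in IP. Scaling by total counts gave 29 genes in RNA. Without the filter on low counts there were 78 in RNA and 264 in footprints. Leaving out 1 mouse gave 13 to 36 genes in RNA (36 without mouse D, 33 without mouse A), 64 to 837 in footprints (837 without mouse C, 265 without mouse D, 64 without mouse B) and 56 to 77 in TE change (56 without mouse A). The cause of these shifts was not tested.

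Values that turned in sign were, apart from Ppp1r15b in IP on CDS counts, not called under either setting. In IP, total counts gave -0.16 for Atf5 (-0.16 also for its mean of both mice) and -0.26 for Ppp1r15b, CDS counts gave -0.94 for Ppp1r15b, and leaving out mouse E or F gave -0.11 to 0.17 for it. In RNA, Ppp1r15a was at 0.00079 without the filter and 0.032 on exon counts. With 1 mouse left out, RNA changes ran from -0.14 to 0.12 for Ppp1r15a, -0.15 to 0.11 for Atf5, -0.077 to 0.0037 for Ddit3 and -0.17 to 0.014 for Ppp1r15b. Without mouse A, RNA changes of 0.036 for Atf5 and 0.053 for Ppp1r15a, a footprint change of 0.022 for Ppp1r15b and a TE change of -0.041 for Ddit3 also turned. Footprint changes ran from -0.010 to 0.25 for Atf4 and -0.30 to 0.055 for Ppp1r15b. TE changes ran from -0.33 to 0.48 for Ddit3, -0.30 to 0.18 for Ppp1r15b, -0.77 to 0.35 for Atf5 and -0.82 to 0.20 for Ppp1r15a, and total counts gave 0.0051 for Ppp1r15b. With the mouse as a replicate block, 6 members were called in baseline TE (3 of them kept by their RNA counts only), 0 in TE change and 5 in IP, and the block changed no call of a member. Where leaving out a mouse left 1 library in a group, the lone library was assumed to vary like the others. Depth limits the TE of Ppp1r15a, Ddit3 and Atf5, which rests on 19, 34 and 37 footprints.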

Other observations

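The 27 genes of the IRE1 and ATF6 arms of the unfolded protein response, the branches that run beside the eIF2alpha kinase PERK, had a median baseline log2 TE of 0.55, with 18 higher and 4 lower. Mbtps1, the protease that cleaves ATF6, was the lowest at -2.52, and the transcription factor Xbp1 was at -1.40. In the RiboTag IP 12 of them were higher and 2 lower, with Sec61b, a part of the translocon, at 1.34 and Ern1, which encodes IRE1, at -2.48. Of 12 immediate early genes, 9 were higher in IP, led by Egr4 (1.42) and Junb (1.27). Over all genes tested, 33.7% were called higher and 35.7% lower in IP, and 36.6% higher and 36.9% lower in baseline TE. After AZD-8055, the phosphatase gene Dusp1 rose in RNA by 0.54 and Egr4 in footprints by 0.58. All genes named here passed edgeR's test, with adjusted p-values up to 0.034.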
